A study of Mus musculus with 18 samples.

Results

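The response of B6 bone marrow-derived macrophages (BMDMs) to CpG was measured by RNA-seq in 6 of the 18 samples of the series, 3 CpG treated and 3 untreated (control), and 15789 of the 20615 genes in the deposited table were tested. Samples were taken by strain (C57BL/6, B6) and treatment as labelled, and genes of both directions were kept. Marrow came from the femur and tibia of mice aged 7 to 12 weeks, and BMDMs were grown to day 7 with 20% L929 supernatant, a source of M-CSF, and plated at 300000 cells in each well. CpG was given at 1 µM for 6 h in medium with 5% L929 supernatant. By the labels, a wash and a further incubation of 3 h followed in the apoptotic cell (AC) samples. The methods give a longer incubation and can be read as covering CpG treated BMDMs too, so the time from the start of CpG to RNA is open. The study used 3 mice of each strain. The class of the CpG oligonucleotide, and which mouse each sample came from, are not given in the sources used here. Compared with it were the CpG response of SjSs BMDMs, from C57BL/6.NOD-*Aec1Aec2* mice that carry intervals of the NOD genome on the B6 background (3 control and 3 CpG samples), and B6 BMDMs given dexamethasone-killed thymocytes at 5 for each BMDM for 2 h (3 samples). All BMDMs are primary cultures, and differences between cells within a culture cannot be seen in bulk RNA, where fewer cells of a type and less RNA in each cell cannot be told apart.

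Unmethylated CpG DNA is sensed in endosomes by TLR9, which signals through the adaptor MyD88 and IRAK kinases. In macrophages this activates NF-kB and MAP kinases, which induce cytokines, chemokines and their own inhibitors, and interferon regulatory factors, which induce interferon and antiviral genes. Activated macrophages are known for secretion of cytokines and killing of microbes.

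The totals over genes were 45180407 to 57139640 counts in control and 39856501 to 52464294 in CpG treated B6 BMDMs. Values below are CPM (counts scaled to 1000000 of each normalized library total), with ± as SD of 3 samples. Log2 fold changes (CpG over control) are from edgeR's quasi-likelihood fit of all 18 samples, which scaled the libraries by TMM. Their ± is an approximate SE, the size of the log2 fold change over the square root of the test's F statistic. It may be too small for genes with few counts in a group. Values in brackets after CPM means are log2 fold changes. To be called higher or lower, a gene needed a log2 fold change past 1.3 in either direction and a Benjamini-Hochberg adjusted p below 0.05, and rose, fell and changed are used of called genes. The samples carried the markers of macrophages. *Csf1r*, the M-CSF receptor, stood at 2541, 2547 and 2508 CPM in control and 2371, 2479 and 2296 CPM in CpG treated BMDMs, and *Lyz2* at 11328 ± 405 CPM and 12472 ± 1021 CPM. The 10 macrophage markers summed to 21380 to 22360 CPM in control and 24290 to 27190 CPM with CpG. The 14 of 15 T-lineage markers in the table were low, summing to 0.545 to 0.693 CPM and 0.564 to 1.499 CPM, and 2 of them at 0 in each group. None of the neutrophil and 1 of the dendritic cell markers in the table was at 0 in control, and none in CpG treated BMDMs. The 6 neutrophil markers in the table summed to 3.72 to 5.43 CPM and 11.3 to 13.2 CPM, and the 9 dendritic cell markers to 6.20 to 7.85 CPM and 10.8 to 12.4 CPM (exact two-sided permutation test, p = 0.1 for each, the smallest that 3 samples against 3 allow). The 9 B-lineage markers in the table summed to 131 to 169 CPM and 144 to 155 CPM (exact permutation p = 0.8), those of fibroblasts and endothelium to 76.3 to 170.1 CPM and 61.2 to 121.8 CPM (exact permutation p = 0.4), and the part of other cell types in the results was not tested.

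CpG raised 925 genes (5.86% of those tested) and lowered 1086 (6.88%). The called genes that rose held 3.79% to 3.83% of the normalized counts in the control samples and 13.2% to 14.3% with CpG, while those that fell went from 3.67% to 3.73% down to 0.829% to 0.970%. By adjusted p alone, with no fold threshold, 28.1% of genes tested were higher and 29.8% lower. The median log2 fold changes of the called genes were 2.05 and -1.83, against -0.04 over all genes tested. Rises reached further than falls, with 125 genes over 4 on the log2 scale upwards and 36 downwards. The 3 CpG samples lay apart from the 3 control samples in 901 of the genes called higher (97.4%) and 1059 of those called lower (97.5%), against 30.1% of all genes tested with CpG above and 31.4% with CpG below. The calls were made from these same samples, so this separation describes the called genes and is not further evidence for them. With library totals alone in place of TMM, the median over all genes shifted to -0.22 and the split became 766 higher and 1418 lower, 35.1% higher in place of 46.0%, and rises made up 52.7% of the calls over a log2 fold change of 2 and 55.3% with glmTreat, edgeR's test against 1.3, so which direction held more calls depends on the threshold. The calls in each gene list below are to be read against 5.86% higher and 6.88% lower over all genes tested. The lists and their members were chosen with earlier results of these data known, so these shares describe the lists and do not test them.

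**Figure D1:**
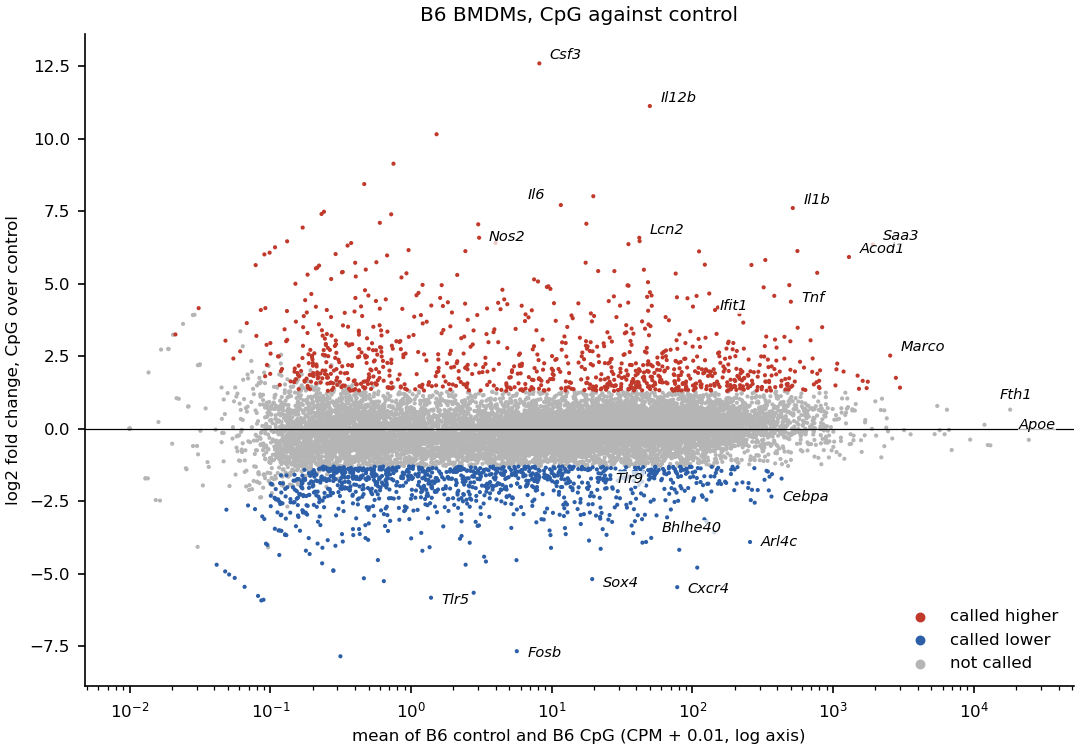
Log2 fold change (CpG over control, B6 BMDMs) of each gene tested against the mean of the 2 group means in CPM plus 0.01 on a log axis, with genes called higher in red, called lower in blue and others in grey. The rises take in *Saa3*, *Acod1* and *Marco* among the most expressed genes, and for the 14 genes called higher with 0 control counts, *Csf3* among them, the plotted fold depends on the fit's prior count.

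The receptor for CpG itself was lower after treatment. *Tlr9* (mm10 chromosome 9, 106222598 to 106226883) had 37.1, 37.1 and 38.8 CPM in the control samples and 7.88, 10.7 and 12.8 CPM with CpG. All 3 CpG samples lay below all 3 control samples, a log2 fold change of -1.85 ± 0.13 (adjusted p = 3.34e-10). *Tlr5*, the flagellin receptor, fell much further in fold, from 2.75, 3.0 and 2.36 CPM to 0.0403, 0.0799 and 0.0217 CPM (-5.82 ± 0.46). *Tlr7*, the endosomal RNA sensor, had 191 ± 20.8 CPM in control and 102 ± 8.36 CPM with CpG, and its log2 fold change of -0.91 did not reach the fold threshold. *Tlr1*, a partner of TLR2 for lipopeptides, rose from 58 ± 2.67 CPM to 209.7 ± 14.9 CPM (1.85 ± 0.09), so the receptors of the family did not move one way. Of 28 Toll-like receptors, adaptors and kinases tested, 6 rose and 3 fell, with a median log2 fold change of 0.08 that turned to -0.10 with library totals alone. The adaptor *Myd88* rose from 69.7, 68.6 and 71.8 CPM in control to 181, 193 and 168 CPM with CpG (log2 fold change 1.37 ± 0.06), a call that ended with library totals alone (1.18). *Ticam2*, the bridging adaptor of TLR4, rose from 19.5 ± 0.897 CPM to 93.6 ± 7.04 CPM (2.27 ± 0.08). Inhibitors of the pathway moved in both directions. *Irak3*, an inactive kinase that restrains IRAK signaling, rose from 94.1, 93.8 and 91.1 CPM in control to 547, 525 and 498 CPM with CpG (log2 fold change 2.49 ± 0.06). *Sigirr*, an inhibitory receptor of the same family, fell from 1.11 ± 0.349 CPM to 0.333 ± 0.119 CPM (-1.73 ± 0.32).

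NF-kB is held in the cytosol by IkB proteins, and its own subunits and inhibitors are among its targets. Of the 20 NF-kB subunits and inhibitors tested, 11 rose and none fell, with a median log2 fold change of 1.404. *Nfkbia*, which encodes IkBα, rose from 112, 108 and 108 CPM in control to 933, 879 and 840.1 CPM with CpG (log2 fold change 3.01 ± 0.08). *Nfkbiz*, an atypical nuclear IkB needed for secondary response genes, rose from 30.9, 30.6 and 30.2 CPM in control to 1064, 875 and 899 CPM with CpG (log2 fold change 4.95 ± 0.13). These were rises of 8.08-fold and 30.9-fold, and in both genes the samples of a group lay close together and far from the other group. The A20 deubiquitinase gene *Tnfaip3* rose from 55.8 ± 4.85 CPM to 358 ± 16.5 CPM (2.68 ± 0.10). *Tnip3*, which encodes an A20-binding protein, rose from 44.6 ± 5.12 CPM to 346 ± 33.8 CPM (2.95 ± 0.10). *Nfkb1*, the p105 and p50 subunit, rose from 162 ± 9.47 CPM to 500.2 ± 36 CPM (1.62 ± 0.07), less than these inhibitors.

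Promoter windows show where NF-kB and interferon motifs lie next to genes that rose. RefSeq windows on GRCm38.p6, the assembly behind mm10, run from 250 bases before to 50 bases after each start, and 10389 of the genes tested matched one by symbol, chromosome and strand. On either strand, 10.2% of these windows held the NF-kB consensus motif and 3.21% the core of the interferon-stimulated response element (ISRE), a pair of GAAA blocks with any 2 bases between them. Shown are the 250 bases before the start of *Nfkbia* (chr12:55492648-55492897, minus strand), *Il6* (chr5:30012864-30013113, plus strand), *Isg15* (chr4:156200819-156201068, minus strand) and *Cxcl10* (chr5:92348890-92349139, minus strand), as an inhibitor, a cytokine, an antiviral gene and a chemokine with both motifs. They run 5′ to 3′ on the gene's strand, with matches in capitals.
*Nfkbia*: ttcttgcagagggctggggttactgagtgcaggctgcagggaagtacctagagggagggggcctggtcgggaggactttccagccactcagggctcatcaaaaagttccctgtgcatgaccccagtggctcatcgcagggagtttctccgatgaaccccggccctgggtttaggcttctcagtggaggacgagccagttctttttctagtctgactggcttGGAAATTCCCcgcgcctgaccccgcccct
*Il6*: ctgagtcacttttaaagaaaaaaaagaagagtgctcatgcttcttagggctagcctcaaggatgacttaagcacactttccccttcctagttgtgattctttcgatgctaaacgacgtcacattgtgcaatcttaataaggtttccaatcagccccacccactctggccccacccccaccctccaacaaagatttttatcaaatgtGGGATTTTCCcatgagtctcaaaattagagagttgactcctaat
*Isg15*: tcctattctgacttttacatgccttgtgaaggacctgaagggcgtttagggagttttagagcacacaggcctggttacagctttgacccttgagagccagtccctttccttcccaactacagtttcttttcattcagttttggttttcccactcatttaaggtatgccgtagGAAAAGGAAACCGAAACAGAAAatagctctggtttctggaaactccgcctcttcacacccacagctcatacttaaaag
*Cxcl10*: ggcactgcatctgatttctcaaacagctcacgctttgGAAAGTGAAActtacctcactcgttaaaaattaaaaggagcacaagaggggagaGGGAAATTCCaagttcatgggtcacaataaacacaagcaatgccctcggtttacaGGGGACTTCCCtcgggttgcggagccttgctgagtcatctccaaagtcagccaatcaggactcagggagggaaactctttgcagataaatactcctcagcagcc
The capitals mark the NF-kB motif at -29 to -20 of *Nfkbia* and -44 to -35 of *Il6*, counted back from the start. In *Isg15* they mark 3 overlapping matches to the ISRE core at -78 to -57. In *Cxcl10* the first capitals, -213 to -204, match the ISRE core, and those at -159 to -150 and -104 to -94 match the NF-kB motif, with no overlap between the motifs. The windows of *Tnf*, *Il1b* and *Il12b* held no match to the NF-kB motif. A match is a description of letters and not of binding, and shares among called genes were not compared because windows were found for 65.4% of those called higher and 67.9% of those called lower, under the 80% set as a minimum.

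Cytokines held several of the largest rises. *Il12b*, the p40 subunit shared by IL-12 and IL-23 (mm10 chromosome 11, 44400063 to 44414033), had 0.048, 0.0626 and 0.0178 CPM in control and 98.9, 102 and 97.9 CPM with CpG (log2 fold change 11.12 ± 0.29, adjusted p = 6.61e-16). *Il12a*, the p35 subunit, had no count in any control sample and 1.96, 1.36 and 1.13 CPM with CpG, at least 83.4-fold higher when the control group is set to 3 counts in all. Both subunit genes of IL-12 thus went from near or at 0 to measurable RNA in all 3 CpG samples. *Csf3*, the granulocyte growth factor G-CSF, was also without control counts and reached 20.6, 16.1 and 12.2 CPM, at least 913-fold higher on the same basis. The pyrogenic cytokine *Il6*, whose promoter is shown above, rose from 0.176, 0.0626 and 0.071 CPM in control to 26.5, 20.6 and 22.2 CPM with CpG (log2 fold change 7.71 ± 0.33), a value of 8.37 without control 1. *Il1b*, whose product is released after cleavage by caspase-1, rose from 4.29, 4.36 and 7.14 CPM in control to 1263, 1035 and 785 CPM with CpG (log2 fold change 7.61 ± 0.24). In *Tnf*, a cytokine expressed before treatment as well, the samples went from 46.5, 45.9 and 45.5 CPM to 1051, 944 and 872 CPM, 20.8-fold. In *Csf3*, *Il1b* and *Tnf* CpG 1 was the highest and CpG 3 the lowest of the CpG samples, while *Il12b* was nearly equal in all 3.

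Of the 24 inflammatory cytokine genes tested, 15 rose and 2 fell, with a median log2 fold change of 2.199. *Il11*, another member of the IL-6 family, fell from 0.272, 0.125 and 0.142 CPM in control to 0, 0.0533 and 0.0652 CPM with CpG (log2 fold change -2.197 ± 0.92), on a few counts (adjusted p = 0.0489). Its call ended with glmTreat, with the size factors of DESeq2 and without CpG 1 (-1.57), CpG 2 (-2.44), CpG 3 (-2.83), control 1 (-1.76) or control 3 (-2.35). *Lif*, a cytokine of the IL-6 family, fell from 2.5, 1.25 and 2.4 CPM in control to 0.726, 0.24 and 0.804 CPM with CpG (log2 fold change -1.76 ± 0.37), and remained at a low level in both groups. *Il10*, the main anti-inflammatory cytokine of macrophages, rose from 2.18, 1.75 and 2.56 CPM in control to 73.6, 66.7 and 60.6 CPM with CpG (log2 fold change 4.94 ± 0.18). *Il1rn*, the IL-1 receptor antagonist, had 74.5 ± 22.7 CPM in control and 149 ± 12.6 CPM with CpG. Its log2 fold change of 1.01 was under the threshold and far from the 7.61 of the agonist *Il1b*.

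Chemokines recruit leukocytes, and 13 of the 23 tested rose and 2 fell, with a median of 3.25 that was 2.38 with the compared groups only and 2.32 with no filter on low counts. Of the falls, 1 was left without CpG 3 or control 1. *Cxcl1*, which attracts neutrophils, rose from 0.24, 1.48 and 0.924 CPM in control to 67.1, 70.6 and 70.1 CPM with CpG (log2 fold change 6.36 ± 0.33). *Cxcl3*, another neutrophil attractant, rose from 3.2 ± 0.49 CPM to 219.7 ± 41.5 CPM (6.11 ± 0.15). *Ccl3*, which attracts monocytes and T cells, rose from 38.1, 35.7 and 35 CPM in control to 1644, 1507 and 1364 CPM with CpG (log2 fold change 5.37 ± 0.13). All 3 had counts in every control sample, and their CpG samples all lay far above. *Ccl5*, a T cell attractant, rose from 3.65 ± 1.33 CPM to 148 ± 16 CPM (5.35 ± 0.20). *Cxcl9*, a ligand of CXCR3, had 1 count over the 3 control samples, in control 3, and 196 with CpG, a ratio of 245 (exact 95% interval 43.5 to 9738, counting error only). Both falls were in chemokines outside the classic inflammatory set. *Ccl24*, an eosinophil attractant of alternatively activated macrophages, fell from 0.614 ± 0.0331 CPM to 0.186 ± 0.0291 CPM (-1.699 ± 0.54). *Cxcl14*, a constitutive chemokine, fell from 143, 91.6 and 91.9 CPM in control to 53.3, 37.4 and 33.8 CPM with CpG (log2 fold change -1.39 ± 0.20), a call that ended without control 1 (-1.14) or without CpG 3 (-1.25).

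Of 9 chemokine receptors 4 fell and 1 rose. Their median of -0.79 moved to -1.39 without CpG 1 and -0.38 without control 1, and 2 rose without CpG 1, CpG 2, control 1 or control 3. *Cxcr4*, the receptor for CXCL12 that retains cells in marrow (mm10 chromosome 1, 128588199 to 128592293), had 144, 159 and 154 CPM in control and 1.71, 4.47 and 4.39 CPM with CpG, a log2 fold change of -5.46 ± 0.27 (adjusted p = 2.81e-12). The highest CpG sample lay far below the lowest control sample. *Ccr2*, the CCL2 receptor of inflammatory monocytes, fell from 10.3, 11.8 and 9.73 CPM in control to 2.36, 2.9 and 3.91 CPM with CpG (log2 fold change -1.795 ± 0.23). *Cxcr3*, the receptor of CXCL9 and CXCL10, fell from 6.93 ± 0.27 CPM to 1.5 ± 0.101 CPM (-2.21 ± 0.16), while 2 of its ligands rose. *Ccrl2*, an atypical receptor that presents chemerin, rose from 13.4 ± 3.16 CPM to 38.9 ± 7.18 CPM (1.54 ± 0.18).

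**Figure D2:**
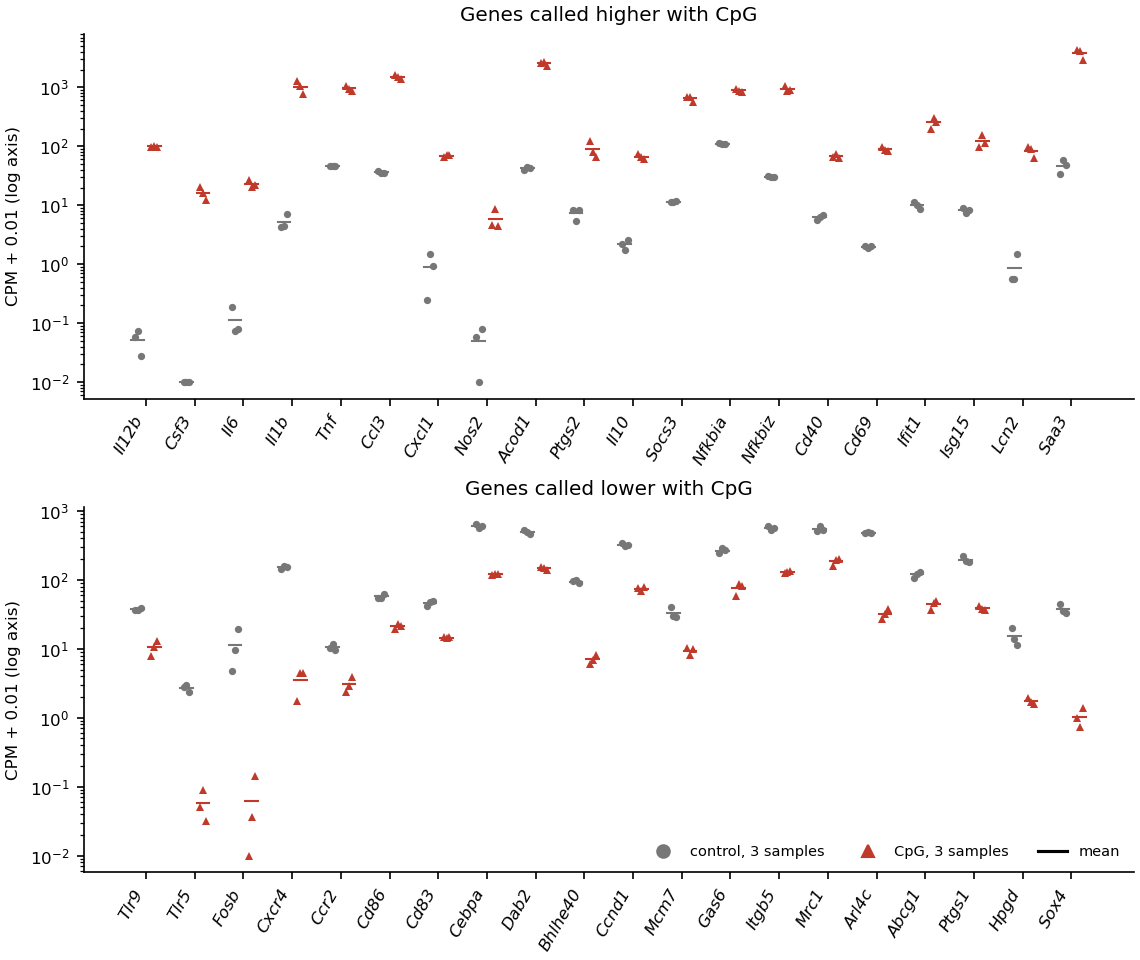
CPM plus 0.01 (log axis) of 20 genes called higher and 20 called lower with CpG in B6 BMDMs, where 0 counts plot at 0.01, with each of the 3 control samples as a grey circle, each of the 3 CpG samples as a red triangle and a line at each mean. In all 40 genes the CpG samples lie apart from the control samples, for example *Il12b* at 0.0178 to 0.0626 CPM in control and 97.9 to 102 CPM with CpG, and *Fosb* at 4.82 to 19.3 CPM and 0 to 0.130 CPM. Samples that do not overlap were a condition for naming the largest rises and falls, so this separation is not a separate result.

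Feedback genes moved in both directions. SOCS proteins block cytokine receptor signaling. *Socs3*, which restrains IL-6 signaling, rose from 11.4, 11.3 and 11.7 CPM in control to 685, 686 and 573 CPM with CpG (log2 fold change 5.82 ± 0.16), and *Socs1*, which restrains interferon signaling, rose from 3.1 ± 0.365 CPM to 20.4 ± 2.24 CPM (2.72 ± 0.16). *Socs2*, a feedback inhibitor of growth hormone, fell from 6.52, 4.28 and 4.8 CPM in control to 0.746, 0.213 and 0.674 CPM with CpG (log2 fold change -3.21 ± 0.28). The 24 genes of the SOCS, IL-10 and TGF-beta list held 6 higher and 6 lower, with a median of -0.01 that turned to 0.02 with the size factors of DESeq2. Its TGF-beta members that were called all fell. *Smad7*, the inhibitory SMAD, fell from 55.9, 50.9 and 47.1 CPM in control to 9.43, 9.0 and 10.8 CPM with CpG (log2 fold change -2.39 ± 0.14). *Tgfbr1*, a receptor, fell from 274 ± 25.3 CPM to 104 ± 4.85 CPM (-1.402 ± 0.13). The ligand *Tgfb3* fell from 6.86 ± 1.25 CPM to 2.23 ± 0.937 CPM (-1.597 ± 0.21).

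Among 17 MAP kinase phosphatases and related inhibitors, 4 rose and 2 fell (median -0.39). *Dusp2*, a nuclear ERK phosphatase, rose from 5.92, 6.03 and 6.84 CPM in control to 85.3, 82.4 and 76.6 CPM with CpG (log2 fold change 3.7 ± 0.13). *Dusp16*, which acts on JNK and p38, rose from 33.3 ± 4.82 CPM to 169 ± 17.7 CPM (2.34 ± 0.16). *Dusp6*, a cytosolic ERK phosphatase, fell from 141, 127 and 137 CPM in control to 30.9, 33.4 and 33 CPM with CpG (log2 fold change -2.06 ± 0.13), so phosphatases of ERK moved both ways. *Dusp1*, the classic early phosphatase, had 30.4, 41.2 and 60.5 CPM in control and 100.004, 111 and 108 CPM with CpG. Its log2 fold change of 1.27 stood just under the threshold. It passed with DESeq2, and at 1.31 with the replicate number as a block, at 1.32 without CpG 1 and at 1.57 without control 3.

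Immediate early factors answer a stimulus within minutes, and 6 of the 25 tested were higher and 4 lower at the time of sampling (median 0.18, or -0.00 with library totals alone). *Fosb*, an AP-1 subunit, had 4.82, 9.57 and 19.3 CPM in control and 0, 0.0266 and 0.13 CPM with CpG. Its control samples differed widely among themselves and all lay above the CpG samples. The log2 fold change of -7.67 ± 1.05 was -9.63 without CpG 3, -7.02 without CpG 1 and -7.02 without control 3. *Fos*, its relative, had 98.7 ± 15.5 CPM in control and 174 ± 2.73 CPM with CpG, a log2 fold change of 0.82, under the threshold and of the other sign. *Egr3*, a zinc finger factor, fell from 0.697 ± 0.186 CPM to 0.136 ± 0.0927 CPM (-2.398 ± 0.54), and its value was -3.02 without CpG 2. *Nr4a3*, an orphan nuclear receptor, fell from 2.15 ± 0.907 CPM to 0.36 ± 0.153 CPM (-2.604 ± 0.53). *Batf*, an AP-1 factor that pairs with IRFs, rose from 12.2, 12.9 and 14.4 CPM in control to 80.2, 86.5 and 76.9 CPM with CpG (log2 fold change 2.63 ± 0.09). *Maff*, a small MAF protein, rose from 12.6 ± 0.778 CPM to 38.9 ± 2.44 CPM (1.62 ± 0.17). The stress-induced repressor *Atf3* was already high at 355 ± 12.3 CPM and stood at 416 ± 33 CPM with CpG (log2 fold change 0.23).

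Interferon and antiviral genes rose almost throughout. Of the 35 tested, 29 rose and none fell, with a median log2 fold change of 2.05. *Ifit1*, which binds viral RNA that lacks a host cap mark, rose from 11.4, 9.93 and 8.67 CPM in control to 200.3, 306 and 254 CPM with CpG (log2 fold change 4.66 ± 0.26). *Isg15*, the ubiquitin-like modifier whose promoter is shown above, rose from 9.14, 7.51 and 8.38 CPM in control to 95.8, 153 and 114 CPM with CpG (log2 fold change 3.85 ± 0.22). *Irf7*, the factor that amplifies type I interferon, rose from 39.5, 47.9 and 63 CPM in control to 138, 244 and 183 CPM with CpG (log2 fold change 1.91 ± 0.19). In these genes CpG 2 was the highest and CpG 1 the lowest of the CpG samples, whereas CpG 1 was the highest in *Il1b* and *Tnf*. *Cmpk2*, an antiviral nucleotide kinase, rose from 10.3 ± 0.698 CPM to 191 ± 55.1 CPM (4.21 ± 0.25) with the same order. *Cxcl10*, a chemokine induced by interferon with motifs of both kinds in its window, rose from 1.2, 1.04 and 1.51 CPM in control to 49.5, 58.3 and 55.7 CPM with CpG (log2 fold change 5.43 ± 0.28).

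RNA of the type I interferon *Ifnb1* itself stayed at a few counts. The 3 control samples held 5 counts and the 3 CpG samples 8, or 0, 0 and 0.0888 CPM against 0.0202, 0.0533 and 0.109 CPM. The groups overlapped, and the log2 fold change of 0.94 ± 1.03 was not called (adjusted p = 0.455). All 5 control counts lay in control 3, and without that sample the value was 4.55 and passed the thresholds. Without control 1 it was 0.32 and without CpG 3 0.199, so that a rise in *Ifnb1* was not settled at this depth. *Irf1*, an early interferon-induced factor, had 73 ± 3.7 CPM and 92.9 ± 13.1 CPM (log2 fold change 0.35).

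Interferon-inducible GTPases attack vacuoles that hold microbes, and 14 of 21 members of their list rose and 1 fell (median 1.85). *Gbp5*, which acts in inflammasome assembly, rose from 4.21, 4.09 and 3.43 CPM in control to 75.9, 109.8 and 88.6 CPM with CpG (log2 fold change 4.55 ± 0.21). *Gbp2* rose from 20.4 ± 1.25 CPM to 158 ± 23.6 CPM (2.95 ± 0.14), and *Igtp*, of the immunity-related GTPases, rose from 17.4 ± 0.783 CPM to 95.3 ± 17.4 CPM (2.45 ± 0.15). *Gbp8* went the other way, as it fell from 10.1, 11.4 and 7.96 CPM in control to 0.786, 1.68 and 1.87 CPM with CpG (log2 fold change -2.78 ± 0.26). Several of these families lie in clusters of near copies, among which the authors' estimated counts could split reads, so single members are less certain than the group. Neighbouring genes called higher included 6 on chromosome 19 from 34550694 to 34650009 around *Ifit1*. Others were 5 on chromosome 1 from 173468485 to 173698392 in a region of HIN-200 genes. A further 4, all *Slfn* genes, lay on chromosome 11 from 83002158 to 83190221. Some such runs lay outside these families, with 6 genes on chromosome 7 from 43562256 to 43678298 around *Siglece*, and how often runs arise was not tested.

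Surface molecules for contact with T cells were not all higher. Of 25 costimulatory and activation molecules, 14 rose and 2 fell, with a median of 2.39. *Cd40*, the receptor for T cell help, rose from 5.62, 6.22 and 6.73 CPM in control to 66.4, 73.4 and 63.3 CPM with CpG (log2 fold change 3.45 ± 0.14). *Cd69*, an early activation marker, rose from 2.02, 1.86 and 2.04 CPM in control to 95.8, 87.1 and 82.2 CPM with CpG (log2 fold change 5.48 ± 0.10). *Cd86*, the ligand of CD28, fell from 55.2, 55.2 and 63.4 CPM in control to 19.4, 23.2 and 21.3 CPM with CpG (log2 fold change -1.45 ± 0.17) with an adjusted p of 5.9e-07. *Cd83*, a maturation marker of dendritic cells, fell from 42.1, 48.4 and 50.2 CPM in control to 14.8, 14.2 and 14.8 CPM with CpG (log2 fold change -1.68 ± 0.19). CD40 and CD86 are commonly read as parallel activation markers, and here the CpG samples lay above all control samples in *Cd40* and below them all in *Cd86*. *Clec4e*, which encodes the receptor Mincle, rose from 16.1, 15.5 and 15.7 CPM in control to 1221, 1074 and 1003 CPM with CpG (log2 fold change 6.13 ± 0.12). *Fpr2*, a formyl peptide receptor, rose from 15.9 ± 1.44 CPM to 288 ± 7.09 CPM (4.18 ± 0.08).

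Antigen presentation genes were called in both directions. Of 19 MHC class I and processing genes, 4 rose and none fell (21.1% higher against 5.86% of all genes, median 0.45), with 2 higher without CpG 2. Of 11 MHC class II genes none rose and 2 fell (18.2% lower against 6.88%, median -0.24). *Tap1*, the peptide transporter, rose from 44.4, 50.3 and 49.8 CPM in control to 103, 161 and 131 CPM with CpG (log2 fold change 1.45 ± 0.15) and lost the call without CpG 2 (1.28) and with library totals alone (1.27). *Psme2*, a proteasome activator, rose from 17.3 ± 0.424 CPM to 64.3 ± 4.5 CPM (1.896 ± 0.08). *H2-Q7*, a class I gene with near copies in its cluster, rose from 17.7 ± 7.25 CPM to 58.1 ± 20.5 CPM (1.71 ± 0.29). On the class II side the falls were in peptide loading. *H2-DMa* fell from 26.3 ± 1.3 CPM to 9.81 ± 0.362 CPM (-1.42 ± 0.08) and *H2-DMb2* fell from 2.41 ± 0.0778 CPM to 0.544 ± 0.0364 CPM (-2.15 ± 0.26), and both encode chains of the loading factor H2-DM. The class II chain *H2-Ab1* (11.1 ± 1.54 CPM and 13.5 ± 2.56 CPM) and the invariant chain *Cd74* (38.8 ± 4.96 CPM and 45.8 ± 5.59 CPM) had overlapping samples.

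Enzymes that make effector molecules were called in both directions, 8 higher and 5 lower of 20 (median -0.10). *Nos2*, the inducible nitric oxide synthase, rose from 0.048, 0 and 0.071 CPM in control to 4.68, 8.73 and 4.43 CPM with CpG (log2 fold change 7.05 ± 0.53), a large fold on a low level. *Acod1*, which makes itaconate, rose from 40.2, 44.1 and 42.1 CPM in control to 2631, 2688 and 2328 CPM with CpG (log2 fold change 5.92 ± 0.16) and was among the 10 most expressed genes called higher. In prostaglandin synthesis the inducible enzymes rose. *Ptgs2*, the inducible cyclooxygenase, rose from 8.45, 5.38 and 8.38 CPM in control to 125, 78.8 and 66 CPM with CpG (log2 fold change 3.59 ± 0.26). *Ptges*, which makes prostaglandin E2 from its product, rose from 4.5, 4.19 and 5.58 CPM in control to 278, 254 and 189 CPM with CpG (log2 fold change 5.65 ± 0.17). The constitutive cyclooxygenase *Ptgs1* fell from 225, 188 and 180.4 CPM in control to 42.2, 38.2 and 36.3 CPM with CpG (log2 fold change -2.35 ± 0.09), opposite in sign to *Ptgs2*. *Hpgd*, which degrades prostaglandins, fell from 20.2, 13.9 and 11.3 CPM in control to 1.94, 1.7 and 1.59 CPM with CpG (log2 fold change -3.12 ± 0.22). *Alox5*, the first enzyme of leukotriene synthesis, fell from 8.97 ± 2.34 CPM to 2.4 ± 0.629 CPM (-1.89 ± 0.22).

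Inflammasome and cell death genes held 7 higher and 2 lower of 26 (median 0.27). *Nlrp3*, a sensor that is primed by Toll-like receptors, rose from 58.6, 62.7 and 57.6 CPM in control to 429, 425 and 358 CPM with CpG (log2 fold change 2.76 ± 0.09). *Casp4*, the mouse caspase-11 that senses lipopolysaccharide, rose from 15.1 ± 0.0696 CPM to 54.2 ± 5.88 CPM (1.84 ± 0.08). *Nlrp1b*, another inflammasome sensor, fell from 30.8, 29.7 and 33 CPM in control to 4.62, 6.47 and 7.67 CPM with CpG (log2 fold change -2.32 ± 0.14), so the sensors did not move together. The survival genes *Bcl2a1a* (4.08 ± 0.646 CPM to 98.4 ± 6.76 CPM) and *Bcl2a1d* (9.5 ± 1.75 CPM to 127 ± 9.28 CPM) rose and are near-identical copies, uncertain one by one. *Bcl2l11*, which encodes the death protein BIM, fell from 126 ± 7.36 CPM to 47.1 ± 2.13 CPM (-1.41 ± 0.08).

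Secreted effectors included some of the most abundant genes that rose. *Saa3*, an acute phase protein, rose from 34, 57.5 and 48 CPM in control to 4240.2, 4143 and 2948 CPM with CpG (log2 fold change 6.35 ± 0.23). *Lcn2*, which withholds iron from bacteria, rose from 0.544, 0.542 and 1.49 CPM in control to 96.4, 88.9 and 63.5 CPM with CpG (log2 fold change 6.58 ± 0.29), or 7.25 without control 3. Of the 23 complement, acute phase and secreted genes 7 rose and 1 fell (median 0.35). *C3*, the central complement protein, rose from 90.1 ± 6.21 CPM to 811 ± 44.1 CPM (3.17 ± 0.07). *Cfb*, of the alternative complement pathway, rose from 16.1 ± 5.15 CPM to 273 ± 66.8 CPM (4.09 ± 0.25). *Plau*, the urokinase, fell from 168 ± 17.7 CPM to 46 ± 11.5 CPM (-1.87 ± 0.18). Of the 28 iron, heme, metallothionein and antioxidant genes, 7 rose and 1 fell (median 0.74). *Sod2*, the mitochondrial superoxide dismutase, rose from 137, 138 and 133 CPM in control to 1646, 1532 and 1429 CPM with CpG (log2 fold change 3.499 ± 0.07). *Slc7a11*, the cystine importer, rose from 82.1 ± 12.4 CPM to 691 ± 111 CPM (3.07 ± 0.15). *Cybb*, the catalytic subunit of the phagocyte oxidase, rose from 1277 ± 70.6 CPM to 4309 ± 141 CPM (1.75 ± 0.07). Genes on both sides of superoxide, one that makes it and one that removes it, thus rose. *Slc40a1*, the iron exporter ferroportin, fell from 435, 525 and 459 CPM in control to 96.3, 116 and 116 CPM with CpG (log2 fold change -2.11 ± 0.13). The metallothionein *Mt2* did not pass the test, with 29.3, 21.9 and 20.2 CPM in control and 30.6, 16.6 and 16.3 CPM with CpG.

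Among 25 metalloproteinase, inhibitor and adhesion genes 6 rose and 1 fell (median 0.198). *Mmp14*, a membrane-bound metalloproteinase, rose from 290.0 ± 16 CPM to 1129 ± 66.2 CPM (1.96 ± 0.07). *Mmp9*, a gelatinase, rose from 65.7 ± 12.6 CPM to 274 ± 11.7 CPM (2.06 ± 0.14). *Adamts4*, an aggrecanase, rose from 0.394 ± 0.227 CPM to 14.6 ± 0.853 CPM (5.15 ± 0.23). All 3 degrade matrix. The laminin receptor subunit *Itga6* fell from 223 ± 30.7 CPM to 49.8 ± 6.84 CPM (-2.16 ± 0.10).

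**Figure D3:**
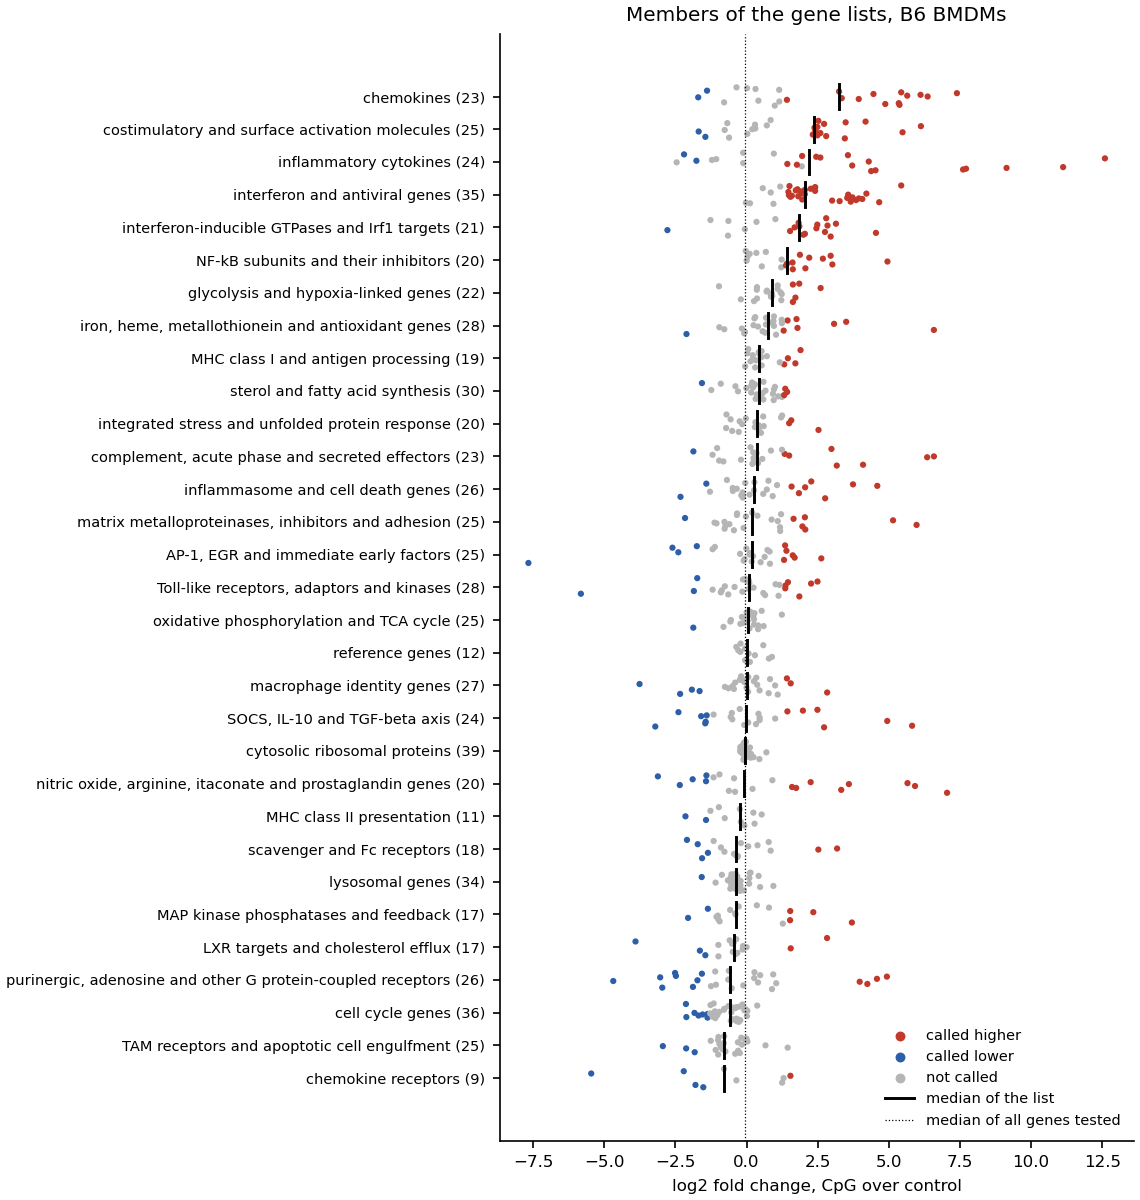
Log2 fold change (CpG over control, B6 BMDMs) of each tested member of 31 gene lists, one row a list with the number tested in brackets and the rows ordered by median. Red points were called higher, blue lower and grey neither, the bar is the list's median and the dotted line the median of all genes tested (-0.04). Chemokine, costimulatory, cytokine and interferon lists lie to the right, and chemokine receptors, engulfment and cell cycle genes to the left.

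Transcription factors and surface proteins that define macrophages shifted in both directions. The identity list of 27 had 3 higher and 4 lower around a median of -0.00, which turned to 0.03 with the size factors of DESeq2. *Cebpa*, a factor of myeloid differentiation, fell from 654, 571 and 600.4 CPM in control to 116, 122 and 124 CPM with CpG (log2 fold change -2.34 ± 0.10). *Cebpd*, its inflammation-induced relative, rose from 24.9, 22.1 and 27.2 CPM in control to 187, 173 and 168 CPM with CpG (log2 fold change 2.83 ± 0.13). *Bhlhe40*, a repressor of *Il10*, fell from 95.1, 99.3 and 90.2 CPM in control to 6.05, 6.87 and 8.08 CPM with CpG (log2 fold change -3.76 ± 0.16) while *Il10* rose. *Irf4*, linked to alternative activation, fell from 0.983 ± 0.0727 CPM to 0.26 ± 0.0534 CPM (-1.92 ± 0.33). *Adgre1*, which encodes F4/80, rose from 1632, 1623 and 1625 CPM in control to 4638, 4291 and 4102 CPM with CpG (log2 fold change 1.42 ± 0.06), and library totals alone ended the call (1.24).

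Of 25 TAM receptor and engulfment genes, which act in the clearance of dead cells, none rose and 3 fell, 12% against 6.88% of all genes, and their median log2 fold change was -0.79. *Gas6*, the bridging ligand of the TAM receptors, fell from 244, 286 and 268 CPM in control to 58.1, 87.1 and 80.7 CPM with CpG (log2 fold change -1.82 ± 0.14). *Itgb5*, a subunit of an integrin that binds apoptotic cells through MFG-E8, fell from 604, 539.5 and 559 CPM in control to 126, 131 and 133 CPM with CpG (log2 fold change -2.12 ± 0.06). *Stab2*, a phosphatidylserine receptor, fell from 5.54 ± 0.911 CPM to 0.709 ± 0.296 CPM (-2.94 ± 0.25). The TAM receptors that are named here did not reach the fold threshold. *Mertk* had 207, 243 and 236 CPM in control and 98.8, 128 and 118 CPM with CpG (log2 fold change -0.996). *Axl* had 313, 237 and 234 CPM and 233, 189 and 173 CPM (-0.399). In both genes the CpG samples lay below the control samples.

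Of 18 scavenger and Fc receptors, 2 rose and 4 fell (median -0.36). *Mrc1*, the mannose receptor, fell from 513, 601 and 535 CPM in control to 161, 197 and 199 CPM with CpG (log2 fold change -1.56 ± 0.09). *Fcgr3*, an activating Fc receptor, fell from 659.7 ± 32.4 CPM to 201 ± 22.1 CPM (-1.72 ± 0.08). *Clec10a*, a galactose-type lectin, fell from 7.71 ± 0.826 CPM to 1.82 ± 0.46 CPM (-2.09 ± 0.17). *Marco*, which binds bacteria, rose from 781, 809.9 and 672 CPM in control to 4868, 4694 and 3435 CPM with CpG (log2 fold change 2.52 ± 0.36), and *Olr1*, a lectin-like scavenger receptor, rose from 2.45 ± 0.097 CPM to 22.1 ± 2.48 CPM (3.18 ± 0.16).

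LXR receptors switch on cholesterol efflux, and of 17 LXR and efflux genes 2 rose and 3 fell (median -0.45). *Nr1h3*, which encodes LXRα, rose from 38.4, 44.7 and 53.5 CPM in control to 108, 148 and 144 CPM with CpG (log2 fold change 1.55 ± 0.13). *Ch25h*, which makes 25-hydroxycholesterol, rose from 0.544, 0.605 and 0.817 CPM in control to 6.93, 3.14 and 3.8 CPM with CpG (log2 fold change 2.83 ± 0.34). Known LXR targets were lower. *Abcg1*, an efflux transporter, fell from 108, 124 and 131 CPM in control to 36.2, 46.6 and 50.3 CPM with CpG (log2 fold change -1.45 ± 0.13). *Mylip*, an E3 ubiquitin ligase, fell from 206, 205 and 202 CPM in control to 59.7, 65.1 and 71.7 CPM with CpG (log2 fold change -1.64 ± 0.14). *Arl4c*, a small GTPase, fell from 476, 489.7 and 478 CPM in control to 26.8, 31.7 and 38.1 CPM with CpG (log2 fold change -3.903 ± 0.17). *Abca1*, the main efflux pump, had 1059.9, 1355 and 1307 CPM and 504, 669.7 and 701 CPM and a log2 fold change of -0.99, under the threshold. The receptor gene and its called targets thus had opposite signs. In sterol and fatty acid synthesis, 3 of 30 genes rose and 1 fell (median 0.44). *Sqle*, an enzyme of sterol synthesis, rose from 28.5, 24.3 and 22.4 CPM in control to 69.5, 62.5 and 56.2 CPM with CpG (log2 fold change 1.32 ± 0.12), and lost its call without CpG 1 (1.24) or control 3 (1.25) and with library totals alone (1.14). The desaturase *Fads1* fell from 97.9 ± 3.01 CPM to 33 ± 2.11 CPM (-1.57 ± 0.07).

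Of 22 glycolysis and hypoxia-linked genes 5 rose and none fell (median 0.897), and of 25 oxidative phosphorylation and TCA cycle genes none rose and 1 fell (median 0.04, or -0.14 with library totals alone). *Slc16a3*, the lactate exporter, rose from 41.9, 40.5 and 46.6 CPM in control to 265, 272 and 246 CPM with CpG (log2 fold change 2.601 ± 0.11). *Pfkl*, a phosphofructokinase, rose from 101 ± 5.69 CPM to 333 ± 16.2 CPM (1.72 ± 0.09). The glucose importer *Slc2a1* rose from 73.2 ± 2.78 CPM to 226 ± 8.84 CPM (1.63 ± 0.08), so import of glucose, a committed step and export of lactate each had a gene that rose. *Hif1a* itself had 202 ± 15.6 CPM and 260.2 ± 29.3 CPM (log2 fold change 0.37). *Idh1*, cytosolic isocitrate dehydrogenase, fell from 382, 428 and 371 CPM in control to 102, 110.1 and 111 CPM with CpG (log2 fold change -1.87 ± 0.08).

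Of 36 cell cycle genes none rose and 7 fell (median -0.596). *Ccnd1*, the cyclin that answers M-CSF, fell from 341, 307 and 318 CPM in control to 75.2, 69 and 78.6 CPM with CpG (log2 fold change -2.12 ± 0.07). *Mcm7*, part of the replicative helicase, fell from 40.7, 30.1 and 29.2 CPM in control to 10.1, 8.15 and 9.82 CPM with CpG (log2 fold change -1.83 ± 0.16). *E2f2*, a factor of S phase entry, fell from 12.5 ± 0.532 CPM to 2.86 ± 0.218 CPM (-2.13 ± 0.13). With library totals alone 11 fell. *Mki67*, a mark of all cycling cells, overlapped between groups (137, 117 and 101 CPM and 120.1, 85.1 and 88.2 CPM).

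Receptors for small molecules held 4 higher and 8 lower of 26 (median -0.57). *Adora2a*, the adenosine receptor that dampens inflammation, rose from 2.69, 2.77 and 3.73 CPM in control to 60.2, 61.3 and 52.8 CPM with CpG (log2 fold change 4.24 ± 0.15). *Gpr84*, a receptor for medium-chain fatty acids, rose from 31.2, 26.6 and 33.9 CPM in control to 837, 734 and 627 CPM with CpG (log2 fold change 4.58 ± 0.13). *Hcar2*, the niacin receptor, rose from 2.15, 2.11 and 2.43 CPM in control to 81.2, 65.1 and 57.9 CPM with CpG (log2 fold change 4.93 ± 0.17). Receptors known from microglia moved the other way. *P2ry12* fell from 23.2, 20.4 and 17 CPM in control to 2.44, 2.61 and 2.72 CPM with CpG (log2 fold change -2.96 ± 0.14). *Gpr34* fell from 7.51, 3.55 and 3.0 CPM in control to 0.161, 0.186 and 0.196 CPM with CpG (log2 fold change -4.68 ± 0.40). *Gpr183*, the receptor of oxysterols made from the product of CH25H, fell from 6.42 ± 1.5 CPM to 0.761 ± 0.406 CPM (-3.04 ± 0.30), opposite in sign to *Ch25h*.

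Of 34 lysosomal genes none rose and 1 fell (median -0.38), the proton pump subunit *Atp6v0d2*, which fell from 79.99 ± 22.8 CPM to 26.8 ± 10.7 CPM (-1.58 ± 0.21). Of 20 stress response genes 3 rose and none fell (median 0.36), and *Ppp1r15a*, the GADD34 phosphatase subunit, rose from 23.9 ± 4.75 CPM to 70.9 ± 9.05 CPM (1.57 ± 0.13). No member of the lists of 39 ribosomal protein genes (median -0.07) or 12 reference genes (median 0.01, or -0.17 with library totals alone) was called. *Rplp0*, a ribosomal protein gene, stood at 658 ± 21.5 CPM and 635 ± 29.5 CPM. *Actb*, a common reference gene, had 4035 ± 254 CPM and 6958 ± 577 CPM, a log2 fold change of 0.79, with its CpG samples above its control samples.

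Genes outside the lists were among the largest changes. *Shisa3*, which holds back WNT and FGF receptors, rose from 0.112, 0.0417 and 0.284 CPM in control to 48.4, 33.8 and 35.8 CPM with CpG (log2 fold change 8.01 ± 0.39), or 8.87 without control 3. *Lad1*, an anchoring filament protein, rose from 0.24, 0.334 and 0.213 CPM in control to 39.5, 32.9 and 32.6 CPM with CpG (log2 fold change 7.07 ± 0.23). *Lipg*, endothelial lipase, went from no control count to 1.71, 3.86 and 3.48 CPM, at least 163-fold higher on that basis. These 3 genes were close to silent in control BMDMs. *Ifi205*, a member of the HIN-200 family, rose from 0.624, 0.897 and 1.31 CPM in control to 59.9, 109 and 80.6 CPM with CpG (log2 fold change 6.47 ± 0.34). *Gfi1b*, a repressor in blood cells, rose from 0.064, 0.146 and 0.071 CPM in control to 8.06, 6.98 and 8.54 CPM with CpG (log2 fold change 6.403 ± 0.30). Downwards, the RING finger gene *Rnf150* fell from 202, 223 and 201 CPM in control to 5.62, 7.3 and 9.82 CPM with CpG (log2 fold change -4.79 ± 0.14). *Sox4*, a developmental transcription factor, fell from 44.6, 35.1 and 33.5 CPM in control to 0.988, 0.719 and 1.37 CPM with CpG (log2 fold change -5.18 ± 0.23), and *Slco2b1*, an organic anion transporter, fell from 5.44 ± 0.292 CPM to 0.111 ± 0.0785 CPM (-5.65 ± 0.33). In each of these 3 genes no CpG sample kept more than a small part of the control level. *Rgs2*, which limits G protein signaling, fell from 148, 159 and 151 CPM in control to 5.81, 8.71 and 11 CPM with CpG (log2 fold change -4.17 ± 0.22). *Slc46a3*, a lysosomal transporter, fell from 42.2 ± 0.403 CPM to 2.4 ± 0.525 CPM (-4.14 ± 0.13). Among the most expressed genes called, *Plek* (pleckstrin) rose from 655 ± 57.1 CPM to 2330.0 ± 164 CPM (1.83 ± 0.11), and the TNF receptor *Tnfrsf1b* rose from 784 ± 49.2 CPM to 2461 ± 131 CPM (1.65 ± 0.06). The translation factor *Eif4g2* rose from 865 ± 38.5 CPM to 2663 ± 339 CPM (1.62 ± 0.08). The small GTPase *Rhob* fell from 473 ± 47.6 CPM to 81 ± 15.4 CPM (-2.55 ± 0.15), and *Dab2*, an endocytic adaptor, fell from 502 ± 31.8 CPM to 148 ± 8.57 CPM (-1.76 ± 0.07). By kind of gene, 5.78% of tested protein-coding genes were called higher and 7.06% lower, and of long intergenic RNAs 7.30% and 12.3%.

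Whether the strain changed this response was tested as an interaction, the B6 response minus the SjSs response, which uses separate controls. It called 52 genes with a positive difference (0.329% of those tested) and 45 with a negative one (0.285%). A negative difference can be a smaller rise or a deeper fall in B6, so it is not always a smaller response. In SjSs BMDMs CpG raised 759 genes (4.81%) and lowered 703 (4.45%), and 908 of the 925 genes called higher in B6 and 1062 of the 1086 called lower had the same sign there. Their medians in SjSs were 1.72 and -1.35, smaller than in B6, where the genes were chosen for passing a threshold. Of the genes called higher in B6, 38 were called larger in B6 and 7 smaller, and of those called lower 27 were called lower in B6 than in SjSs by this test and none higher. These counts lean one way at least in part because the B6 samples chose the genes.

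Interferon genes made up part of this difference, with 9 of the 35 on their list larger in B6 and none smaller. *Ifit1* went from 23 ± 7.0 CPM to 171 ± 64.2 CPM in SjSs BMDMs, against 10.005 ± 1.38 CPM to 253 ± 52.7 CPM in B6, a difference of responses of 1.76 ± 0.32 (adjusted p = 0.0028). *Cmpk2* went from 22.2 ± 6.82 CPM to 124 ± 38.7 CPM in SjSs (1.71 ± 0.32), and *Cxcl10* from 2.55 ± 1.64 CPM to 25.3 ± 5.4 CPM (2.03 ± 0.41). In all 3 genes the SjSs control level was higher and the SjSs CpG level lower than in B6 by mean. *Il1b* reached 109 ± 13.4 CPM with CpG in SjSs from 1.97 ± 0.56 CPM (1.79 ± 0.34, adjusted p = 0.00359), and *Ptgs2* 34.3 ± 3.22 CPM from 10.2 ± 3.98 CPM (1.82 ± 0.35). For *Tnf* the difference was -0.53 ± 0.19 (adjusted p = 0.109) and for *Il6* -0.29 ± 0.94 (adjusted p = 0.907), so neither was called and neither was shown to be equal.

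Falls were deeper in B6 in several of its leading genes, which were named for their changes in B6. *Cxcr4* went from 318 ± 50.6 CPM to 51.2 ± 17.7 CPM in SjSs BMDMs, a log2 fold change of -2.64 against -5.46 in B6 (difference -2.82 ± 0.33, adjusted p = 7.28e-05). *Arl4c* went from 591 ± 71.6 CPM to 153 ± 42.3 CPM (difference -1.95 ± 0.21), *Rnf150* from 179 ± 6.75 CPM to 18.9 ± 2.57 CPM (-1.55 ± 0.17) and *Bhlhe40* from 54.8 ± 11.9 CPM to 11.1 ± 2.53 CPM (-1.46 ± 0.21). For *Tlr9* the SjSs values were 36.5 ± 1.54 CPM and 19.8 ± 1.7 CPM, and the difference of -0.97 ± 0.18 had an adjusted p of 0.00266 but did not reach the fold threshold. *Ccnd1* was alike in this, with 261 ± 8.94 CPM and 127 ± 5.57 CPM in SjSs and a difference of -1.07 ± 0.10 (adjusted p = 2.85e-06).

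**Figure D4:**
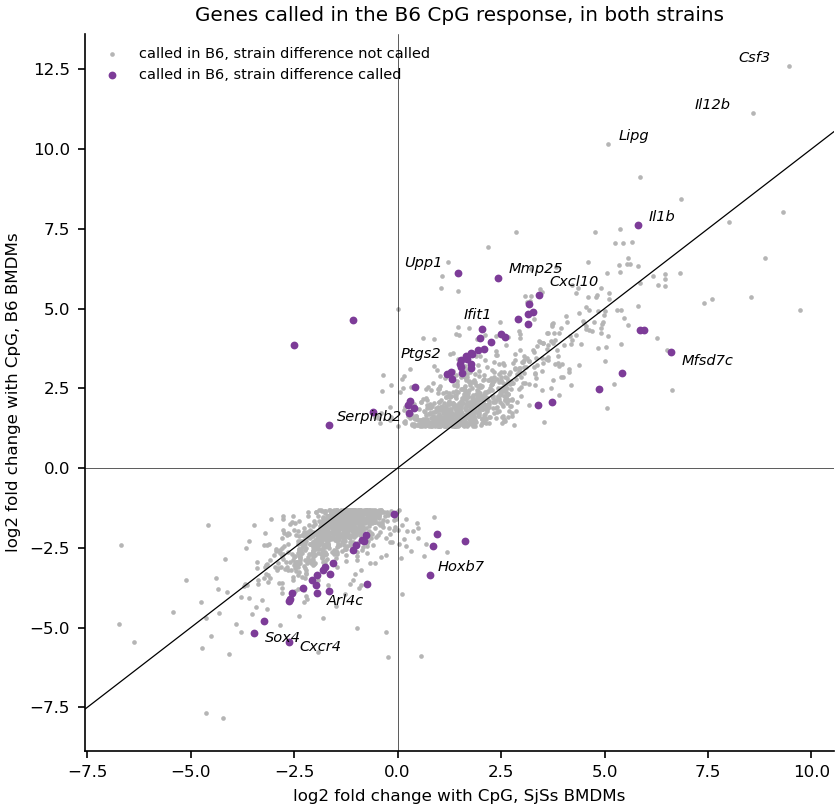
Log2 fold change with CpG in B6 BMDMs (vertical) against that in SjSs BMDMs (horizontal) for the 2011 genes called in B6, with the line of equal response and with genes whose difference between strains was called in purple. Most points lie in the quadrants of equal sign, and genes such as *Il1b*, *Cxcl10*, *Ifit1*, *Cxcr4* and *Arl4c* lie farther out in B6 than in SjSs. The positions of genes with no control counts, *Csf3* and *Lipg* among them, depend on the fit's prior count.

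CpG and ACs were compared directly in B6 BMDMs, with time and dose differing between the treatments. CpG gave 548 genes above (3.47%) and 575 below the AC samples (3.64%). Of the 2 T-lineage markers tested, none was above and 1 was below AC, and the part of thymocyte RNA left in the AC samples was not tested. Of the genes called higher with CpG, 414 were also above AC and 5 below. Of those called lower, 390 were below AC and 1 above. These counts lean one way at least in part because the CpG samples chose the genes. Inflammatory cytokines were higher with CpG. *Il12b* stood at 99.5 ± 2.01 CPM with CpG and 0.868 ± 0.372 CPM with ACs (log2 difference 6.85 ± 0.20), *Il1b* at 1028 ± 239 CPM and 51.5 ± 10.5 CPM (4.32 ± 0.20), and *Tnf* at 956 ± 90.2 CPM and 163 ± 18 CPM (2.55 ± 0.14). In all, 15 of 24 inflammatory cytokines were above and 3 below AC.

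The interferon list differed from this. Of the 35 on their list none was above and 2 were below AC. *Ifit1* stood at 253 ± 52.7 CPM with CpG and 259 ± 10.5 CPM with ACs, a log2 difference of -0.03 ± 0.21. *Cxcl10* was higher with ACs, 191 ± 12.1 CPM against 54.5 ± 4.52 CPM (-1.81 ± 0.21, adjusted p = 6.2e-07). Lipid genes differed by treatment. Of 30 sterol and fatty acid synthesis genes 14 were above AC and none below. *Sqle* stood at 62.7 ± 6.65 CPM with CpG against 10.1 ± 0.927 CPM with ACs (log2 difference 2.63 ± 0.13). Against control, ACs lowered 6 of the 30 and raised none, while CpG raised 3 and lowered 1. Over all genes tested, ACs lowered 2.04% and raised 2.43%. Of 17 LXR and efflux genes 5 were below AC and 1 above, *Ch25h* (2.18 ± 0.33), with *Abca1* at 625 ± 106 CPM against 1796 ± 111 CPM (-1.52 ± 0.13) and *Abcg1* at 44.4 ± 7.3 CPM against 284 ± 11.6 CPM (-2.68 ± 0.13). *Mt2* was 231 ± 31.6 CPM with ACs and 21.2 ± 8.18 CPM with CpG. *Olr1* rose with CpG and stood higher still with ACs, 80.3 ± 10.3 CPM against 22.1 ± 2.48 CPM (-1.86 ± 0.13).

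**Figure D5:**
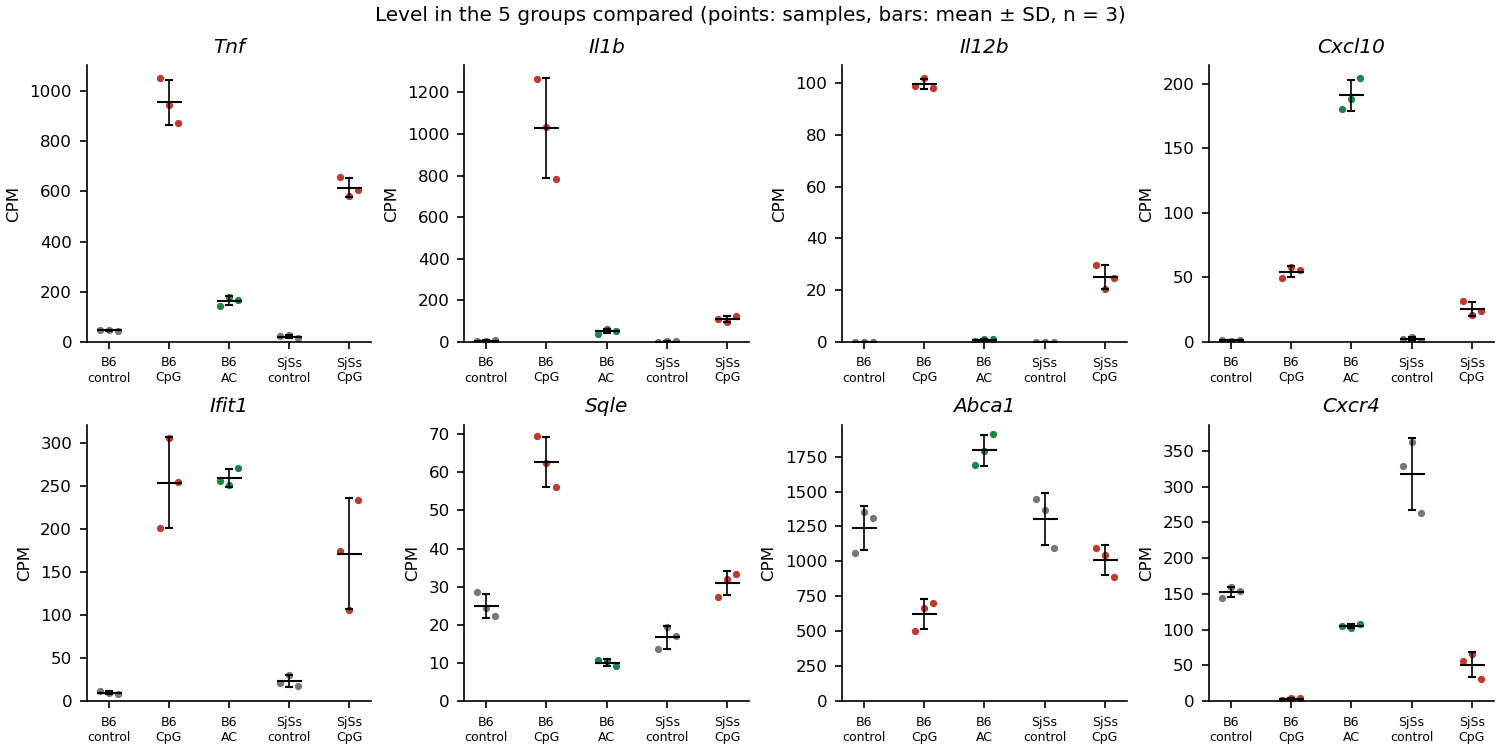
CPM of 8 genes in control, CpG and AC samples of B6 BMDMs and control and CpG samples of SjSs BMDMs, each axis starting at 0, with samples as points and bars as mean ± SD (n = 3). *Tnf*, *Il1b*, *Il12b* and *Sqle* are highest in CpG treated B6 BMDMs, *Cxcl10* and *Abca1* in AC treated B6 BMDMs, and *Cxcr4* is lowest in CpG treated B6 BMDMs.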

How the data were processed

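RNA-seq gene counts of 18 BMDM samples (6 groups of 3) were used. The authors aligned reads to mm10 with STAR and deposited expected counts per gene from Partek's E/M tool, not normalized, of which 41.1% were not whole (tolerance 1e-06). They were rounded. Of 23 gene names turned into dates, 18 were resolved by position in GENCODE M21, and gene ends are 1 base under the deposited stop. Genes were filtered by filterByExpr, scaled by TMM and fitted in 1 model of 6 group means with edgeR 4.0.16 (R 4.3.3), with Benjamini-Hochberg adjustment over all 15789 genes. Thresholds followed the study's methods. DESeq2 1.42.0 was an alternative, figures used matplotlib 3.10.9, and scripts were tested on simulated counts. All 18 totals lay between 30688288 and 57139640 counts.

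Deviations from the group means correlated between control and CpG samples of the same number in B6 (r = 0.260, 0.264 and 0.137), so these numbers were taken to pair the samples, which the labels do not state. The main fit and the permutation tests did not use this pairing, which entered only in the alternative with a replicate block. Replicates were not duplicates. Intervals and floors cover counting error only.

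Named genes are fixed members of each list, up to 3 largest rises and falls of each list whose samples do not overlap, the 15 largest changes each way over 1 CPM, the 10 most expressed called each way, and up to 6 each way of the interaction and of CpG against AC. The members and lists were chosen with earlier results of these data known. Alternatives were DESeq2, its size factors, library totals, other filters and fold thresholds, glmTreat, compared groups only, a replicate block and each sample left out. RefSeq promoter windows were searched for fixed motifs. Some genes of the lists are not reported here.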

Additional observations from a re-analysis of the deposited data

Results flagged for a closer look

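The CpG response differed between B6 and SjSs BMDMs in 28 of the 215 named genes, by edgeR's test of the interaction with the thresholds used above. Over all genes tested, this test called 0.329% with a positive and 0.285% with a negative difference. Some genes were named because this test called them and others for large changes in B6, so the 28 is not a rate. Differences are B6 minus SjSs on the log2 scale, and they were not recomputed gene by gene under other settings. Genes that rose more in B6 gave 1.79 for *Il1b*, 1.82 for *Ptgs2*, 1.49 for *Cfb*, 1.97 for *Adamts4*, 3.55 for *Mmp25* and 4.65 for *Upp1*, and interferon-inducible genes 1.76 for *Ifit1*, 1.71 for *Cmpk2*, 2.03 for *Cxcl10* and 1.37 for *Tgtp2*. Genes that fell more in B6 gave -2.82 for *Cxcr4*, -1.95 for *Arl4c*, -1.72 for *Sox4*, -1.55 for *Rnf150*, -1.55 for *Rgs2*, -1.46 for *Bhlhe40*, -1.40 for *Socs2* and -2.88 for *Gm20703*. *Mfsd7c* rose more in SjSs (-2.97).

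Fitted signs were opposite between the strains in 8 genes. *Serpinb2*, an inhibitor of urokinase, stood at 3.94 ± 1.53 CPM in control and 10.1 ± 1.5 CPM in CpG treated B6 BMDMs and at 16.4 ± 3.84 CPM and 5.13 ± 0.645 CPM in SjSs, a difference of 3.01. Its rise in B6 lost its call without CpG 1 (1.28), CpG 3 (1.28) or control 2 (1.08). The others had under 1 CPM on average in each of the 4 groups, with -4.13 for *Hoxb7*, -3.91 for *Rdh9*, -3.30 for *Gp9*, -3.02 for *Dlx5*, 2.37 for *Wnt9a* and 5.72 for *Tnnt2* and, from overlapping samples, 6.35 for *Gm26635*. *Egr1*, not called in B6, had 14 ± 0.997 CPM in control and 4.37 ± 0.615 CPM in CpG treated SjSs BMDMs, a difference of 1.45.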

How the results depend on the processing

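No called gene among the 215 named reversed its direction under any alternative that gave it a value. The counts for CpG in B6 were 952 higher and 1032 lower with DESeq2, 847 and 965 with the compared groups only, and 933 and 1095 with the replicate block, which changed no call of the named genes but that of *Dusp1*. They were 486 and 436 over a log2 fold change of 2, 4439 and 4708 with no fold threshold, and 570 and 460 with glmTreat, so that rises outnumbered falls over 2 and with glmTreat, which tests against 1.3 and ended the call of 48 named genes. With each sample left out in turn they were 914 to 958 higher and 1035 to 1200 lower. For the difference between strains (B6 minus SjSs), positive and negative calls numbered 84 and 83 over 1 and 13 and 15 over 2. They numbered 413 and 510 with no fold threshold and 1 and 0 with glmTreat, so few of these differences were shown to exceed 1.3. For CpG against AC, 954 genes were lower over 1, and 250 were higher and 201 lower over 2, 3541 and 3736 with no fold threshold, and 243 and 154 with glmTreat. Genes with a few counts in a group, such as *Ifnb1*, are limited by depth, and 3 samples in a group limit every test.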
